A study of Mus musculus with 6 samples.

Results

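Rnf144b encodes a ubiquitin ligase of the RBR class, and its RNA in hearts of Trdn-as knockout mice stood at 45.9 to 52.7% of the wild-type value of the same replicate number. The account covers 9 genes of this class out of 20254 genes in the deposited table: Rnf144b, its paralogue Rnf144a, Rnf14, Rnf19a, Rnf19b, Arih1, Arih2, Rnf31 and Rbck1. Rnf144b was chosen by these same knockout and wild-type values, so its genotype difference is a description and carries no test. The other 8 genes were taken as relatives, by family and not by their values. All 9 genes were found by their Ensembl identifiers, and all 9 passed the filter on low values that left 13823 genes for testing.

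The study sequenced RNA of whole hearts from C57BL/6 mice. The wild-type group (WT, n = 3) and the group labelled Trdn-as KO (KO, n = 3) each held 2 hearts of 14 months (replicates 1 and 2) and 1 heart of 5 months (replicate 3). No treatment is named for either group, and how the Trdn-as allele was made is something the sources used here do not give. Litters are not named either, and p-values here measure the spread between these hearts. Trdn-as is a long non-coding RNA named for its position antisense to Trdn, the gene of triadin in the calcium release complex of heart muscle. The RNA itself was not analysed here. Trdn was at 5702, 5600 and 9104 in WT hearts against 3429, 3460 and 5606 in KO hearts, a difference of −0.71 on the log2 scale (SE 0.10, limma adjusted p = 0.261 over all genes).

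RBR ligases combine features of the RING and HECT classes of ubiquitin ligase. Their first RING domain binds a ubiquitin-conjugating enzyme (E2), the ubiquitin passes to a cysteine in a later domain called RING2, and from there to the target protein. An in-between-RING domain separates these parts and gives the class its name. In striated muscle, ubiquitin ligases mark sarcomere and signalling proteins for degradation.

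The libraries had normalized totals of 19810148 to 23510139, of which mitochondrially encoded genes took 39.97 to 49.4%. RNA of Y-linked genes marked replicates 1 and 3 of both genotypes as male and replicate 2 as female, so sex and replicate number go together. Cardiomyocyte markers were abundant in every library, led by Myh6 and Actc1, as the tissue label states. The summed levels of all 9 cell type marker lists overlapped between KO and WT, and none of these lists had a marker below 1 in all libraries. By fitted difference the 8 cardiomyocyte markers (median −0.31) and the 8 fibroblast markers, led by Dcn and Col3a1 (median −0.29), were all below WT. Limma called 0 of either, with 0 and 1 at an unadjusted p under 0.05. The cardiomyocyte sums were 623279, 640259 and 1141930 in WT replicates 1, 2 and 3, against 581191, 660794 and 648852 in KO. The fibroblast sums were 20626.0, 20528.8 and 20377.0 in WT against 20472.5, 18150.0 and 12993.1 in KO. In both lists the gap between the sums was largest in replicate 3. Of the 9 lists only the adipocyte list had more markers above WT than below, 7 of 10 tested (median 0.29), with 0 called. All 5 erythroid markers tested (median −1.13), led by Hbb-bs and Hba-a2, were below WT, with 0 called and 0 at an unadjusted p under 0.05. The same held for the 3 genes tested from the skeletal muscle list (median −0.29), Ckm (−0.34), Acta1 (−0.29) and Tnni2 (−0.02). Ckm ran from 18323.5 to 38514.5, against 18150 to 26920 for the cardiomyocyte marker Ryr2, and Tnni2 only from 15.7 to 19.1. That list is thus no measure of skeletal muscle tissue here. The erythroid sum was 66893 in WT-1 and 2727 to 19399 in the other libraries. The part of these cell types in the level of Rnf144b was not tested. The values are relative to each library, so fewer cells of a type and less RNA per cell cannot be told apart.

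Rnf144b (ENSMUSG00000038068) lies on chromosome 13 (47122656 to 47247991, plus strand, mm10). GENCODE gives it 2 transcripts with separate first exons, at 47122656 to 47122873 and at 47193825 to 47194120. Both join the same exon 2 (47207360 to 47207550), which holds the start codon of both, so their coding parts begin alike. The deposited values are per gene and do not tell these starts apart. The stretches just before each first exon are shown because they are the candidate promoters of the gene that was low in KO, with that of its paralogue Rnf144a on chromosome 12 beside them. They come from RefSeq (GRCm38.p6), run 5′ to 3′ on the gene's strand, and capitals mark CG dinucleotides. The first Rnf144b stretch is chr13:47122470-47122655, the second chr13:47193753-47193824, and the Rnf144a stretch chr12:26415263-26415512 on the minus strand.
Rnf144b first start: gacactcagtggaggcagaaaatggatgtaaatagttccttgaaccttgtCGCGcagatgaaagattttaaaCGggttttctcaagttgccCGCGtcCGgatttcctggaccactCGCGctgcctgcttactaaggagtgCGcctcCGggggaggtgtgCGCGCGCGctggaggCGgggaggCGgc
Rnf144b second start: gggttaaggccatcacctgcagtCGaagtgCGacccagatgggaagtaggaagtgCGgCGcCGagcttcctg
Rnf144a: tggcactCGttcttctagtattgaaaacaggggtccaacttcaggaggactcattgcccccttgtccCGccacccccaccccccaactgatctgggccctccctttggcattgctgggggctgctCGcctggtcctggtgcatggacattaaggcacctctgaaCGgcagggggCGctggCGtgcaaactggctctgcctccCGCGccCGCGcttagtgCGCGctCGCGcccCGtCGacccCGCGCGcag

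All 3 stretches hold CG dinucleotides, 16, 5 and 19 of them in the order shown. Over the whole window from 250 bases before to 50 bases after the RefSeq start, the first Rnf144b start had 27 CG dinucleotides and 62.7% GC. The second start had 17 and 60.7%, and Rnf144a had 25 and 67.0%. The median over all 32851 windows of this length was 7 CG dinucleotides and 52.7% GC. RefSeq windows were used for 7 of the 9 genes, 10 windows in all, with none for Rnf14 and Rnf19a.

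Short motifs were searched in these windows on both strands. The half-site of the glucocorticoid receptor, TGTTCT, was in neither Rnf144b window and in 19.0% of all windows. Neither Rnf144b window held the p53 half-site (8.36% of all windows), the E-box CACGTG (7.15%) or CCAAT (37.4%). The second window held 1 TATAAA, found in 13.6% of all windows, and 1 GC box GGGCGG, found in 35.7%. They began 178 and 13 bases before the RefSeq start. Both lie within the GENCODE first exon of that transcript, past the end of the printed stretch. The Rnf144a window held 1 GC box. No motif overlapped another in these 3 windows. Among the other members with windows, TGTTCT occurred once in the first Arih2 window and in no other.

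The transcripts of Rnf144b carry sequence of their own. Of the 4891 distinct 31-base words in its transcripts, 0% occurred in transcripts of another gene, and Rnf144a shared 0.217% of its words with other genes. Arih2 shared 12.2%, of which the largest part was with the predicted gene Gm12263, and Rnf19a shared 9.52%, so their levels depend more on how reads were assigned. Rnf31 overlaps Irf9 on the same strand and shared 2.99%. Within the first intron of the longer Rnf144b transcript, GENCODE M21 places A930002C04Rik (47143942 to 47148670) and Gm48581 (47152357 to 47155008) on the opposite strand, and 4930549C15Rik lies antisense within Rnf144a. These were not analysed here. A930002C04Rik and Gm48581 overlap no exon annotated for Rnf144b. The sources used here do not say whether the libraries kept strand, so reads of antisense genes cannot be told apart where exons overlap.

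Rnf144b, known as a p53-induced ligase that marks p21, p73 and Bax, had normalized values of 672, 616 and 741 in WT replicates 1, 2 and 3, against 308, 325 and 361 in KO. The KO values all lay below the WT values, with a wide gap between the lowest WT heart and the highest KO heart. Means were 676 (SD 62.6, n = 3) in WT and 331 (SD 27.2, n = 3) in KO. The KO heart held 45.9, 52.7 and 48.8% of the WT heart in replicates 1, 2 and 3. The differences on the log2(value + 1) scale were −1.12, −0.92 and −1.03, and the fitted difference with age as a covariate was −1.03 (49.1% of WT). The 5-month pair lay between the others, and the female pair had the smallest difference. All KO libraries lay below all WT libraries in 2.89% of the genes tested. That share includes Rnf144b and stands as background only, since the gene was chosen on this contrast.

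**Figure D1:**
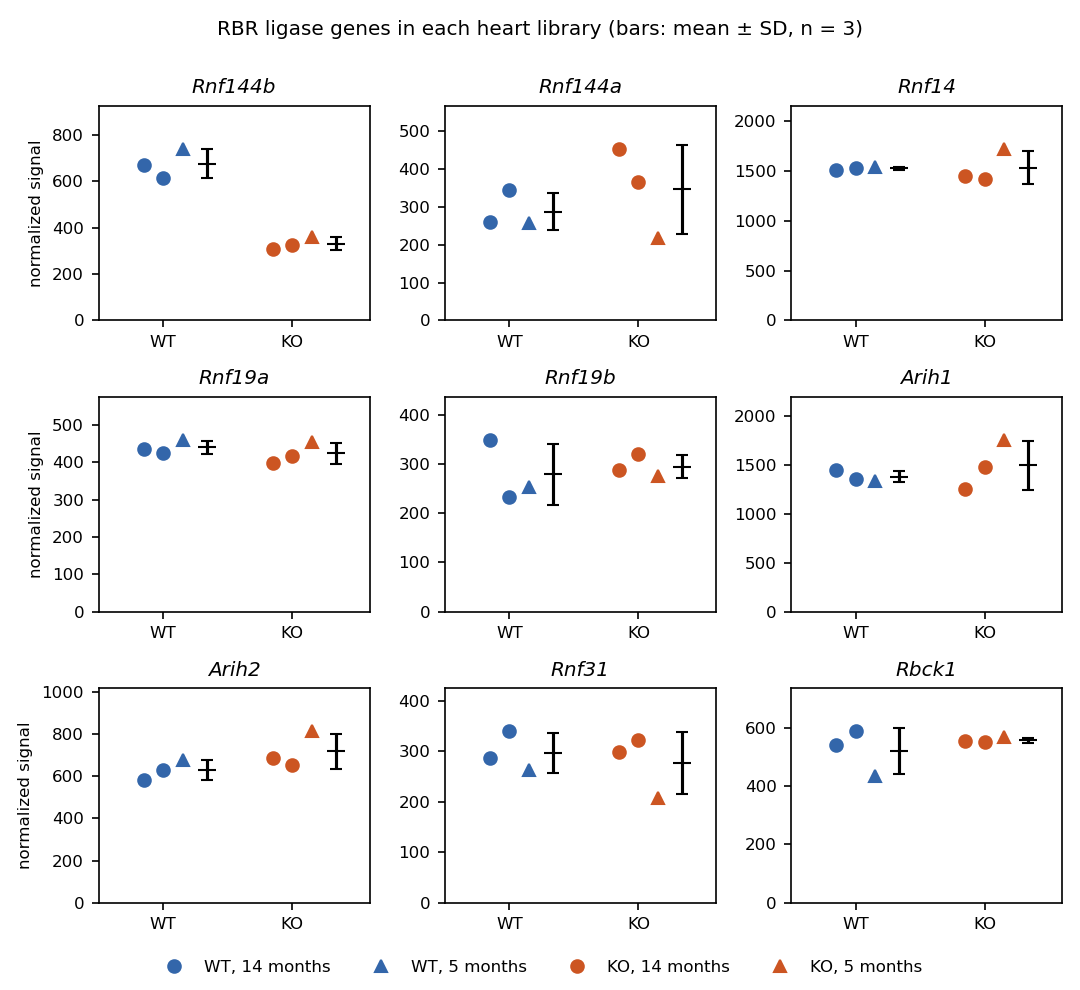
Normalized signal (vertical axis, from 0) of the 9 RBR ligase genes in the 6 heart libraries, WT in blue and KO in orange, with circles for 14 months, triangles for 5 months and black bars for mean ± SD (n = 3). For Rnf144b the KO hearts sit between 308 and 361 and the WT hearts between 616 and 741, while the groups overlap in each of the other 8 genes.

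Rnf144a, the paralogue of Rnf144b, encodes a membrane-anchored ligase known to mark the DNA repair kinase DNA-PKcs. It lies on chromosome 12 (26300964 to 26415254, minus strand). Its values were 260, 345 and 258 in WT hearts against 454, 366 and 219 in KO. The highest and the lowest heart were both KO, and the groups overlapped. Its fitted difference was 0.22 log2 (SE 0.19, limma adjusted p = 0.769, 95% interval −0.23 to 0.67), with 0.80, 0.09 and −0.23 in replicates 1, 2 and 3. In KO-1 it stood at 174% of WT-1, in the pair where Rnf144b stood at 45.9%. In the 5-month pair both genes were lower in KO, with Rnf144a at 84.9%.

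The Ariadne ligases Arih1 and Arih2 act with cullin-RING ligases that carry the ubiquitin-like protein Nedd8 and place the first ubiquitin on their substrates. Both lie on the minus strand of chromosome 9, Arih1 at 59388258 to 59486618 and Arih2 at 108602942 to 108649386. Arih1 was at 1442, 1353 and 1336 in WT hearts against 1253, 1477 and 1753 in KO. Its KO hearts lay on both sides of the WT hearts, and the fitted difference was 0.10 (SE 0.13, limma adjusted p = 0.830). Arih2 was at 580, 629 and 676 in WT hearts against 684, 655 and 814 in KO. It was above WT in all 3 replicates (0.24, 0.06 and 0.27), though KO-2 lay below WT-3. The fitted difference of Arih2, 0.19 (SE 0.11, 95% interval −0.07 to 0.44), missed the threshold of 0.05 (limma adjusted p = 0.745).

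Rnf31 (HOIP) and Rbck1 (HOIL-1) are subunits of the linear ubiquitin chain assembly complex, in which Rnf31 builds the linear chains. Loss of RBCK1 in people causes a glycogen storage disease of skeletal muscle and heart. Rnf31 lies on chromosome 14 (55591708 to 55603693, plus strand) and Rbck1 on chromosome 2 (152316334 to 152332653, minus strand). Rnf31 stood at 286, 340 and 263 in WT hearts against 299, 322 and 207 in KO, a fitted difference of −0.12 (SE 0.15, limma adjusted p = 0.824). KO-3 was its lowest heart. Rbck1 stood at 541, 588 and 433 in WT hearts against 553, 550 and 567 in KO, a difference of 0.11 (SE 0.13, limma adjusted p = 0.824). Its KO hearts were close together (SD 9.19) and WT-3 was the lowest of the 6.

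Rnf14 is a coactivator of the androgen receptor and a ligase that acts at stalled ribosomes. It had the most even WT values, 1510, 1524 and 1543, against 1452, 1422 and 1722 in KO. The fitted difference was 0.00 (SE 0.11, 95% interval −0.25 to 0.25, limma adjusted p = 0.999). Rnf19a (dorfin), a ligase known to mark mutant SOD1, was at 436, 425 and 460 in WT hearts against 399, 416 and 455 in KO, with a difference of −0.06 (SE 0.11). Rnf19b, a ligase of natural killer cells and macrophages, was at 349, 234 and 254 in WT hearts against 288, 321 and 275 in KO, with a difference of 0.10 (SE 0.17). The groups overlapped for each of these genes. Rnf19a lies on chromosome 15 (36239933 to 36283147, minus strand) and Rnf19b on chromosome 4 (129058271 to 129085886, plus strand). The 11 macrophage markers, led by Lyz2 and Mrc1, summed to 5699 to 7512 in WT and 5066 to 7010 in KO.

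Of the 8 relatives, limma called 0 between KO and WT at an adjusted p of 0.05, and 0 had an unadjusted p under 0.05. The background was equal: limma called 0% of the 13823 genes, with 841 genes at an unadjusted p under 0.05. The 8 relatives had a median of 0.10, with 6 above and 2 below WT, beside a median of −0.02 over all genes, of which 53.9% were below WT. None of the 8 had all KO libraries above all WT libraries, as 2.88% of genes did, or below. The direction of 4 relatives near 0 turned with single libraries. Without WT-3 or without KO-3, which leave the same 14-month contrast, Rnf14 was at −0.078, Arih1 at −0.038 and Rbck1 at −0.032, and without WT-2 Rnf19b was at −0.064. The widest interval among them was that of Rnf144a. A further 4 RBR ligases were followed beside them, with 0.19 (SE 0.16) for Ankib1 and −0.01 (SE 0.18) for Cul9. Rnf216 was at −0.15 (SE 0.12) and Rnf217 at 0.10 (SE 0.15). None of the 4 was called by limma.

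**Figure D2:**
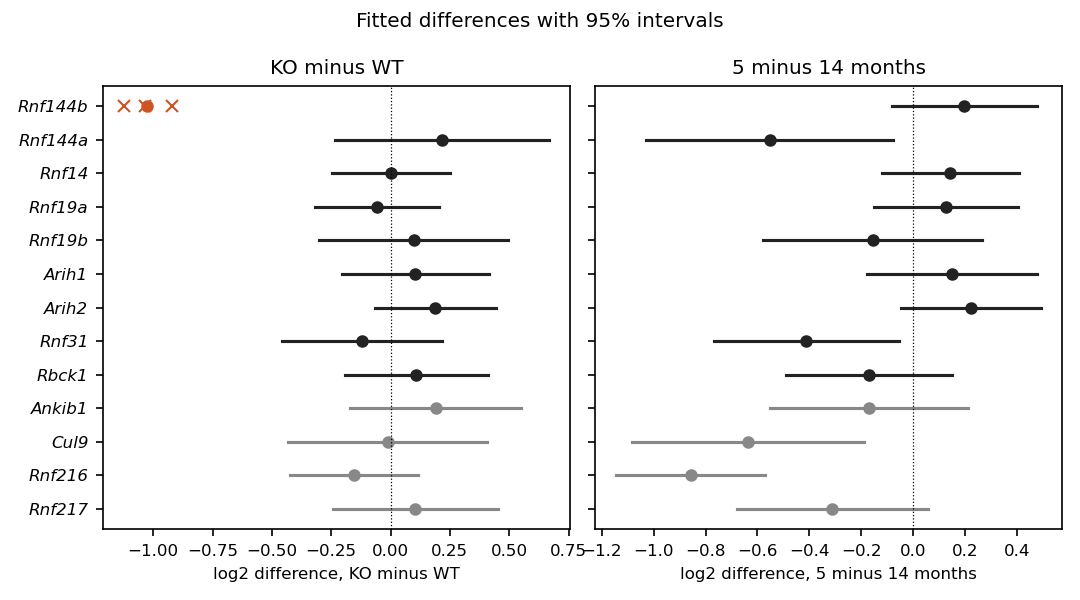
Fitted log2 differences (horizontal axes) of the 13 RBR ligase genes, KO minus WT on the left and 5 minus 14 months on the right, as points with 95% intervals from limma; the 4 grey genes are further RBR ligases. Orange crosses give the 3 replicate differences of Rnf144b (−1.12, −0.92 and −1.03), which was chosen on this contrast and has no interval.

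Levels were compared between genes after division by exon length (normalized signal per kb). In WT hearts the order began with Rnf14 at 319 (SD 3.53), Arih1 at 179 (SD 7.39) and Rnf144b at 137 (SD 12.7), followed by Rbck1 at 113 (SD 17.3). Rnf14, Arih1 and Rnf144b did not overlap each other, while Rnf144b and Rbck1 overlapped. Rnf19a (99.3, SD 3.97), Rnf19b (97.2, SD 21.4) and Arih2 (81.9, SD 6.27) came next. Rnf19b overlapped both of these neighbours, while every WT value of Rnf19a lay above those of Arih2. Rnf31 (51.7, SD 6.82) and Rnf144a (39.2, SD 6.76) were the lowest members, with overlapping values.

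Rnf144b held place 3 of the 13 RBR ligases in WT hearts and place 7 in KO hearts, at 67.2 per kb (SD 5.51), below Arih2 at 93.6 (SD 11.0) and overlapping Rnf216 at 58.6 (SD 17.0). Of the summed level per kb of these 13 genes, Rnf144b made up 10.4, 9.67 and 12.4% in WT hearts against 5.18, 5.35 and 5.70% in KO. Rnf144b had a higher level than Rnf144a in each WT heart, and in KO-1 both levels per kb were nearly equal (62.5 and 61.8). With the longest transcript as the length, Rnf144b took place 5 in WT, behind Rbck1 and Arih2. Across the 6 libraries Rnf144b had the largest coefficient of variation of the 13 (38.5%), a value that includes its genotype difference. Rnf216 (28.5%) and Rnf144a (27.6%) followed, and Rnf19a varied least (5.41%).

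**Figure D3:**
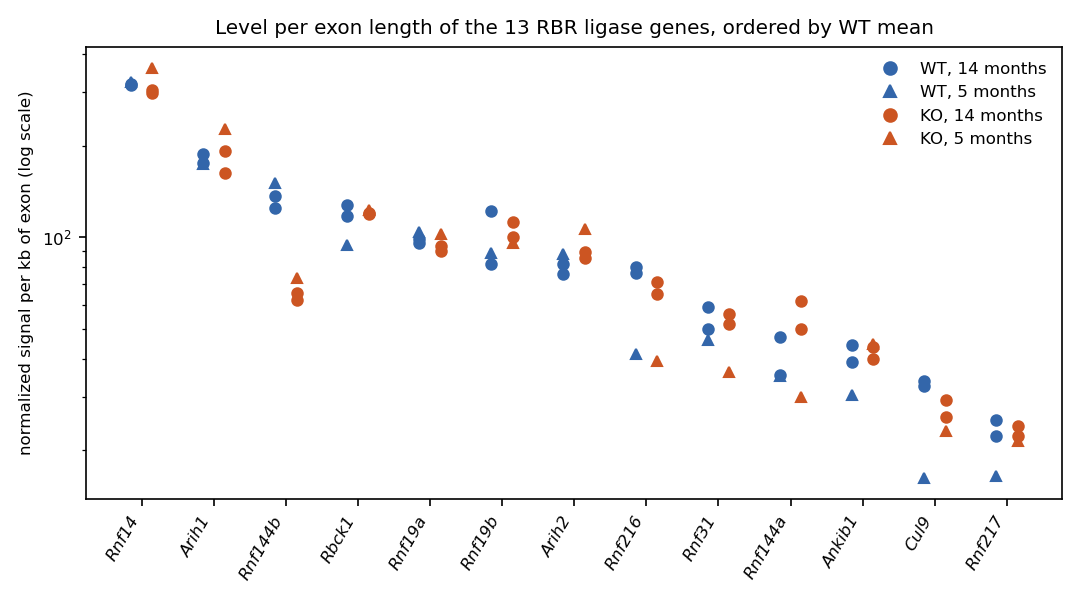
Normalized signal per kb of exon (vertical axis, log scale) of the 13 RBR ligase genes in each library, ordered by the WT mean, with WT in blue, KO in orange, circles for 14 months and triangles for 5 months. Rnf144b takes place 3 among WT hearts at a mean of 137 and lies lower in KO at 67.2, and Rnf217 is lowest at 21.3 in WT.

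Age was not used to choose the genes, so all 9 were tested between 5 and 14 months with genotype as a covariate. By Y-linked RNA both 5-month hearts were male, while replicate 2 at 14 months was female in both genotypes. The fit held no term for sex, so part of an age difference may be one of sex. Rnf144b differed little: 741 and 361 at 5 months against 616 to 672 in WT and 308 to 325 in KO at 14 months. The 5-month heart was the highest of its genotype in both groups. The fitted difference was 0.20 log2 (SE 0.12, 95% interval −0.08 to 0.48, limma adjusted p = 0.241). Rnf144a had the opposite sign, −0.55 (SE 0.21, limma adjusted p = 0.0720). Its WT-3 value of 258 was close to WT-1 at 260, and most of the difference lay in KO. Rnf31 stood at −0.41 (SE 0.15, limma adjusted p = 0.0736).

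In all, limma called 0 of the 9 members by age, with 2 at an unadjusted p under 0.05, Rnf144a and Rnf31, beside 6172 of 13823 genes. Over all genes limma called 33.7%, 17.7% lower and 16% higher at 5 months. Arih2 stood at 0.22 (SE 0.12), Arih1 at 0.15 (SE 0.14), Rnf14 at 0.14 (SE 0.11) and Rnf19a at 0.13 (SE 0.12). Rbck1 stood at −0.17 (SE 0.14) and Rnf19b at −0.16 (SE 0.18). The direction of Arih1 turned without KO-3 (−0.064) and that of Rbck1 without WT-3 (0.040). Both 5-month hearts lay below all 4 hearts of 14 months for 2 members, Rnf144a and Rnf31, as for 25.7% of all genes. They lay above for 2 members, Rnf14 and Rnf19a, as for 25% of all genes.

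The age result of Rnf144a and Rnf31 rests in part on single libraries. Without WT-3, Rnf144a passed at −0.89 (limma adjusted p = 0.0223) and Rnf31 at −0.58 (limma adjusted p = 0.0416), with KO-3 as the only heart of 5 months. Without WT-1, Rnf144a passed at −0.69 (limma adjusted p = 0.0425). Over the alternatives run, the adjusted p of Rnf144a ranged from 0.0223 to 0.488, with the smallest difference, −0.21, without KO-3. That of Rnf31 ranged from 0.0416 to 0.420. With all libraries neither Rnf144a nor Rnf31 was called by age. Some markers of several cell types were called, beside 17.7% of all genes lower and 16% higher at 5 months. The 8 endothelial markers, led by Kdr and Pecam1, summed to 10480 in KO-3 and 12400 in WT-3 at 5 months against 13687 to 17631 at 14 months, with 4 markers called lower and 1, Egfl7, called higher (0.79, SE 0.18). The 8 smooth muscle and pericyte markers, led by Rgs5 and Abcc9, summed to 14852 and 20173 against 21623 to 24933, with 5 markers below 0 by fitted difference, 3 above and 2 called lower. Of the 8 fibroblast markers 3 were called lower and 1 higher (median −0.49), and of the 8 cardiomyocyte markers 4 were called higher and 1 lower (median 0.73). The part of these cell types in the levels of Rnf144a and Rnf31 was not tested.

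Among the 4 further RBR ligases, 2 fell at 5 months by limma and 0 rose, beside 17.7% and 16% of all genes. Rnf216, a ligase of innate immune signalling, was at 549, 574 and 296 in WT hearts against 512, 469 and 282 in KO, with the 5-month heart last in both genotypes (−0.86, SE 0.12, limma adjusted p = 0.00216). Cul9, a cullin that carries an RBR module, was at 397, 413 and 197 in WT hearts against 356, 313 and 283 in KO (−0.64, SE 0.19, limma adjusted p = 0.0374). WT-3 was the lowest heart for Cul9. The estimate for its interaction of genotype and age was 0.80, with 1 heart of 5 months per genotype. Rnf217 stood at −0.31 (SE 0.16) and Ankib1 at −0.17 (SE 0.17).

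Whether the genotype difference varied with age was asked by an interaction term, in which each genotype has 1 heart of 5 months. Its p-values rest on the spread between 14-month hearts of a genotype, which by Y-linked RNA were 1 male and 1 female. They measure no spread between 5-month hearts. Among the 8 relatives limma called 0, beside 2.08% of all genes. At an unadjusted p under 0.05 there were 0 of the 8, beside 3211 of 13823 genes. The largest estimate among them was that of Rnf144a, −0.68 (SE 0.31, limma adjusted p = 0.248), followed by Arih1 at 0.43 (SE 0.19) and Rbck1 at 0.42 (SE 0.19). For Rnf144b the genotype difference of 5 months minus that of 14 months was −0.01, a description since the gene was chosen for being low in all 3 KO hearts. The count over all genes moved from 287 to 4 without the filter on low values and to 15 without WT-1 and 13 without WT-2.

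The genes of closest profile to Rnf144b were ranked by the root mean square difference of log2(value + 1) over the 6 libraries, each gene centred on its own mean. The 6 closest were Fkbp5 (0.126), Ncapg (0.134), Rnase10 (0.159), Ntm (0.171), Ankrd37 (0.186) and Eva1c (0.200). Fkbp5 encodes an Hsp90 partner that tunes steroid receptors, and Ncapg a subunit of the condensin complex of mitotic chromosomes. Fkbp5 was at 596, 622 and 581 in WT hearts against 283, 322 and 356 in KO, levels near those of Rnf144b itself. Ncapg ran from 13.98 to 19.99 in WT and from 7.22 to 10.6 in KO, and Rnase10 from 10.9 to 15.1 and from 4.81 to 6.52. These values are low, and Rnase10 passed the filter through its WT values alone, since its KO values all lie below 10. Ncapg needed its WT values to pass as well, with KO-1 at 7.22 and KO-2 at 8.61. Ntm ran from 40.8 to 59.7 in WT and from 23.4 to 25.7 in KO. Ankrd37 ran from 79.4 to 99.5 and from 34.7 to 46.7, and Eva1c from 22.7 to 27.1 and from 12.9 to 16.8.

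Their Pearson correlations with Rnf144b over the 6 libraries were 0.945 to 0.974, all from the same 6 libraries, and their KO minus WT differences were −1.16 to −0.70. Both follow from the ranking, since the genes were picked for closeness to a profile that was itself chosen as low in KO. Ranked by Pearson correlation in place of distance, 2 of the 6 remained, Fkbp5 and Ncapg. The relatives ranked far behind. By distance the closest of them was Rnf19a, at 0.486 and place 2203 of the genes tested. Its correlation was 0.57 (place 1129), and it varied least of the 13 RBR ligases (5.41%). Rnf144a was at a distance of 0.756 and place 10835, with a correlation of −0.46.

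**Figure D4:**
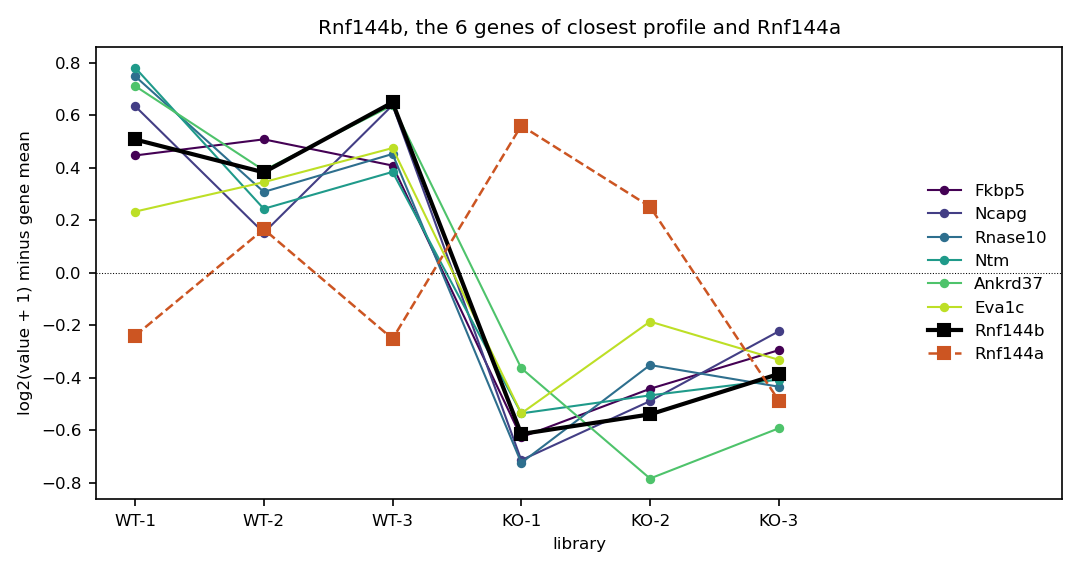
Log2(value + 1) minus the mean of each gene (vertical axis) in the 6 libraries (horizontal axis; lines only link points of a gene) for Rnf144b, the 6 genes of closest profile and Rnf144a. The 6 genes were picked for closeness to Rnf144b, so they share its high WT and low KO values by choice, and Rnf144a, which was not picked so, is highest in KO-1 and lowest in KO-3.

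Genes near Rnf144b on chromosome 13 were examined as a group fixed by distance. The table held 12 genes within 1 Mb, all before the start of Rnf144b and none past its end, of which 10 were tested. None of them was called between genotypes by limma, 0 had an unadjusted p under 0.05, and their median was −0.04, with 4 above and 6 below WT. The nearest tested gene before the start is Dek, a chromatin protein gene 16.5 kb away (47084775 to 47106201, minus strand). Dek was at 816, 792 and 876 in WT hearts against 813, 824 and 1240 in KO (0.18, SE 0.13, limma adjusted p = 0.745). Nup153, a nucleoporin gene, was at 0.20 (SE 0.13). Its 5-month hearts were the lowest of each genotype, and it fell at 5 months (−0.48, SE 0.14, limma adjusted p = 0.0337).

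Of the neighbours 2 more passed by age. In all, 2 of the 10 tested were called lower and 1 higher at 5 months, beside 17.7% and 16% of all genes. Kif13a, a kinesin gene, fell at 5 months (−0.45, SE 0.11), and Tpmt, a thiopurine methyltransferase gene, rose (0.70, SE 0.22, limma adjusted p = 0.0431). On the far side the nearest tested gene was Id4, an inhibitor of helix-loop-helix factors, 1013 kb away. Id4 was low, at 15.7, 17.9 and 14.7 in WT hearts against 32.1, 29.6 and 19.6 in KO. All KO values lay above WT, and the fitted difference was 0.69 (SE 0.32, limma adjusted p = 0.745).

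**Figure D5:**
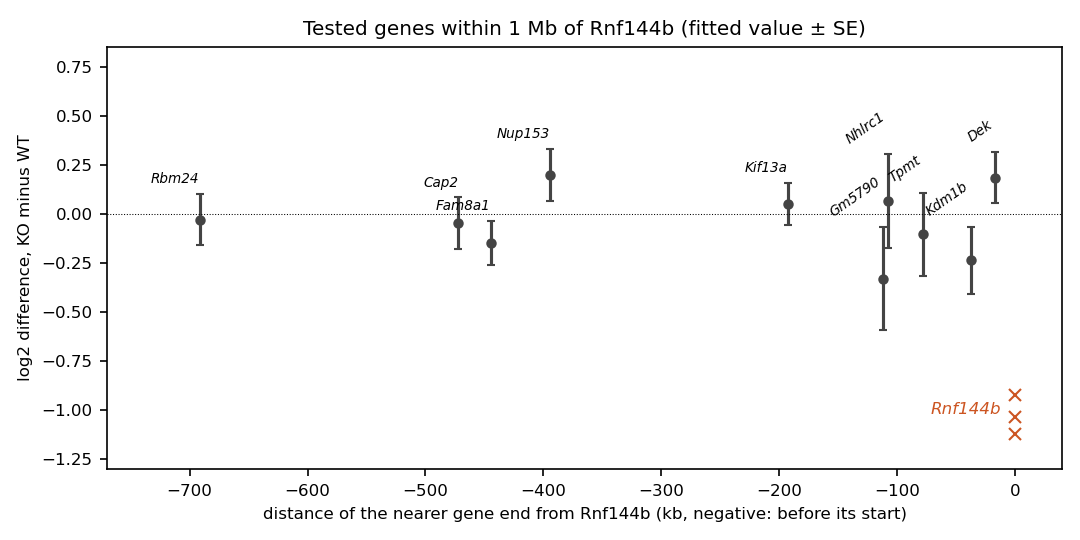
Log2 difference, KO minus WT (vertical axis, fitted value ± SE from limma), of the 10 tested genes within 1 Mb of Rnf144b against their distance in kb from it (horizontal axis, negative before its start), with the 3 replicate differences of Rnf144b as crosses. The neighbours lie between −0.33 and 0.20, and Rnf144b between −1.12 and −0.92.

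The enzymes that feed the RBR ligases were followed in a list of 16 ubiquitin-activating and ubiquitin-conjugating enzymes. None was called between genotypes by limma, and 0 had an unadjusted p under 0.05. Their median was −0.06, with 4 above and 12 below WT. Ube2l3, a main E2 of RBR ligases, was at 2048, 1965 and 1822 in WT hearts against 1902, 1974 and 1376 in KO (−0.17, SE 0.12), and Ube2e1 at −0.23 (SE 0.17). By age 4 of the 16 fell and 0 rose at 5 months, beside 17.7% and 16% of all genes. These were Ube2d1 (−0.99, SE 0.12), the ubiquitin-activating enzyme Uba1 (−1.44, SE 0.26), Ube2d2a (−0.56, SE 0.12) and Ube2v1 (−0.52, SE 0.13).

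The partners of Rnf31 and Rbck1 in linear ubiquitin and TNF receptor signalling formed a list of 18 genes. Limma called 0 between genotypes, and 2 had an unadjusted p under 0.05, beside 841 of all 13823 genes. The median was 0.13, with 13 above and 5 below WT. Sharpin, the third subunit of the linear chain complex, was at 325, 399 and 351 in WT hearts against 214, 364 and 167 in KO. KO-2 lay within the WT hearts, and the difference was −0.60 (SE 0.24, limma adjusted p = 0.745). Tnip1, which binds linear chains, was at 358, 330 and 292 in WT hearts against 454, 475 and 307 in KO (0.31, SE 0.13, limma adjusted p = 0.745).

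By age 5 of these 18 genes rose and 3 fell at 5 months, where 16% of all genes rose and 17.7% fell. Ikbkg, the subunit of the IKK complex that reads linear chains, rose by 0.88 (SE 0.16) and Birc2, a ligase of the TNF receptor complex, by 0.74 (SE 0.14). The receptor Tnfrsf1a (−0.78, SE 0.12) and Tab2, an adaptor of the kinase Tak1 (−0.75, SE 0.12), fell.

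The cullins and the neddylation machinery, partners of Arih1 and Arih2, made a list of 16 genes. None was called between genotypes by limma, with 0 at an unadjusted p under 0.05 and a median of −0.11 (6 above, 10 below). Nedd8 stood at −0.24 (SE 0.12) and the cullin exchange factor Cand1 at −0.26 (SE 0.14). By age 9 of the 16 rose and 2 fell at 5 months (16% and 17.7% of all genes), with a median of 0.49 beside −0.02 over all genes. Nedd8 rose by 0.95 (SE 0.13), Cul1 by 0.75 (SE 0.12) and Cops5, the protease of the COP9 signalosome that removes Nedd8, by 0.97 (SE 0.11). Cand1 fell, from 842 to 1030 at 14 months to 330 and 227 at 5 months (−1.80, SE 0.15, limma adjusted p = 0.000299).

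A list of 20 muscle and heart ubiquitin ligases of other classes had 0 genes called between genotypes by limma, and 0 at an unadjusted p under 0.05. The median was −0.03 (9 above, 11 below). Trim72, a membrane repair ligase, stood at −0.22 (SE 0.11) and Nedd4l, a ligase of ion channels, at 0.23 (SE 0.12). At 5 months 3 of the 20 rose and 7 fell, beside 16% and 17.7% of all genes. Trim63 (MuRF1), a ligase of sarcomere proteins, rose from 1681 to 1847 at 14 months to 2649 and 2590 (0.56, SE 0.11), and its relative Trim54 rose by 0.50 (SE 0.12). Cblb (−0.78, SE 0.15) and the mitochondrial ligase Mul1 (−0.60, SE 0.14) fell.

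Of 20 p53 target genes 19 were tested, and limma called 0 between genotypes. At an unadjusted p under 0.05 there were 2, beside 841 of all 13823 genes. The median was −0.03, with 8 above and 11 below WT. Sesn1, a stress-induced inhibitor of mTORC1, was at 1710, 1799 and 3810 in WT hearts against 1172, 1377 and 3034 in KO. It was lower in KO in each replicate (−0.42, SE 0.11, limma adjusted p = 0.745). Btg2, an antiproliferative gene, was higher (0.47, SE 0.14, limma adjusted p = 0.745).

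Of the genes whose proteins Rnf144b is known to mark, Cdkn1a (p21) RNA stood at −0.18 (SE 0.21) and Bax RNA at 0.03 (SE 0.15) between genotypes. The gene of p73 was not in the list, and these data hold no protein levels. At 5 months 5 of the 19 p53 targets tested rose and 2 fell, beside 16% and 17.7% of all genes, so that the share called in either direction was near the 33.7% of all genes. Sesn1 rose by 1.19 (SE 0.12), Bax by 0.78 (SE 0.16) and Aen, a p53-induced nuclease, by 0.66 (SE 0.13), and Cdkn1a fell (−1.14, SE 0.22). Over all genes the median by age was −0.02, with 51.5% lower at 5 months.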

How the data were processed

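Per the labels' protocols, hearts were flash frozen and RNA was extracted with Trizol. Per the submitters' processing notes, Salmon 1.5.2 and mm10 were used. The deposited values are a normalized gene-level signal, scaled by the authors in a way not given in the sources used here. Named as counts, they are not whole numbers, so no count model was used and depth in reads is unknown. Of 20362 lines, 108 broken ones were left out, and 20146 of 20254 genes matched GENCODE M21 (GRCm38, the build of mm10).

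limma 3.58.1 in R 4.3.3 was fitted across all genes at 10 or more in at least 3 libraries, on log2(value + 1), with trend and robust options, genotype and age as terms, and Benjamini-Hochberg adjustment over all 13823 genes (threshold 0.05). Intervals are 95% limma intervals. Levels per kb used the union of exons. The fit was tested on simulated data. The members, gene lists and named-gene rule were chosen with earlier results of these data known. The rule named the listed RBR ligases, Trdn, the genes of smallest p in each list by genotype and those called by age (up to 4), the 6 closest profiles and the flanking genes. Cdkn1a and Bax between genotypes were added for their known role. A gene of the lists is not reported here. Between any 2 libraries at most 5.50% of genes above 10 lay within 1%, so none was a duplicate. Same-number libraries correlated after removal of genotype means (0.390, 0.383 and 0.617), as did crossed 14-month pairs (0.369 and 0.382). Among 14-month hearts alone the same-number value was 0.0147, so the numbers were not treated as pairs. Alternatives covered the pseudocount, filter, scaling, variance model, covariates and libraries.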

Additional observations from a re-analysis of the deposited data

How the results depend on the processing

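The difference of Rnf144b ran from −1.08 to −0.99 over the 15 alternatives. Its direction was fixed by its choice as low in all 3 KO hearts, so this is no sign of stability. With the replicate block it was −1.03, limma called 0 genes, and the block changed no call. The relatives stayed at 0 calls between genotypes in all 15. The count over all genes, 0 as reported, was 39 with males only, 14 with the 14-month hearts only and 0 to 5 when 1 library was left out (1 without WT-2, 5 without WT-3 and 5 without KO-3). Direction turned for members near 0: with the 14-month hearts only Rnf14 was at −0.078, Arih1 at −0.038 and Rbck1 at −0.032, and with males only Rnf19b was at −0.081. When 1 library was left out, Rnf14 ranged from −0.078 to 0.032, Arih1 from −0.038 to 0.21, Rbck1 from −0.032 to 0.18 and Rnf19b from −0.064 to 0.26.

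By age, the genes called fell from 4663 to 3011 with males only, and members called ranged from 0 to 2 when 1 library was left out. Arih1 then ranged from −0.064 to 0.36 and Rbck1 from −0.38 to 0.040, and the other 7 members kept their direction under all 13 alternatives. The interaction count of 287 became 4 without the filter, 12 with quantile normalization, 7 without the trend and robust options and 13 to 234 when 1 library of 14 months was left out. Fewer samples stand behind the left-out values, and other causes were not tested. Depth in reads is unknown, which limits low genes such as Ncapg, Rnase10 and Id4.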
